A study of Mus musculus with 11 samples.

Results

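The genes described here are 6 markers of red blood cells, followed through RNA sequencing libraries of whole mouse testes collected at postnatal day 5. They were chosen by name: the adult alpha-globin genes Hba-a1 and Hba-a2, the adult beta-globin genes Hbb-bs and Hbb-bt, Alas2 and Slc4a1. They are 6 of the 33188 genes in the joined count table, and all 6 passed the filter on low counts, as did 21690 genes and 22594 features (genes and transposable element subfamilies) in all. The question was how far blood in the dissected testis adds to the spread between replicates and between the 4 genotypes. The genotypes were wild type (WT, 2 libraries), Dnmt3CKO/KO (Dnmt3C KO, 3 libraries), Nrf1KO/KO (Nrf1 cKO, 3 libraries) and the double mutant Dnmt3CKO/KO Nrf1KO/KO (dKO, 3 libraries). In the study's methods the mice were of C57Bl6/J background, Dnmt3C was deleted in the whole animal, and Nrf1 was deleted by a Vasa-driven Cre in germ cells only, over a second allele that was null in every cell. Red blood cells of the Nrf1 cKO and dKO animals therefore carried 1 undeleted Nrf1 allele, while those of the Dnmt3C KO and dKO animals lacked Dnmt3C. Controls were littermates where possible. The labels name the samples germ cells, but the tissue is the whole testis with its somatic cells, vessels and blood, and no step to remove blood was described in the sources used here.

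Red blood cells carry hemoglobin, a tetramer of 2 alpha and 2 beta globin chains with a heme group in each. Alas2 encodes the erythroid form of 5-aminolevulinate synthase, the first and rate-limiting enzyme of heme synthesis, and Slc4a1 encodes band 3, the chloride and bicarbonate exchanger that anchors the membrane to the red cell skeleton. Immature red cells, the reticulocytes, keep globin messenger RNA after the nucleus is lost, so globin reads in a dissected tissue are a familiar mark of the blood left in it. Hba-x and Hbb-y encode the embryonic globin chains of the first red cells. In bulk libraries such as these, fewer blood cells and less RNA per blood cell cannot be told apart.

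The genes of each globin pair lie side by side, and their coding sequences are nearly the same. On GRCm38, in GENCODE M21, Hba-a1 (ENSMUSG00000069919.7) lies on chromosome 11 from 32283511 to 32284465 and Hba-a2 (ENSMUSG00000069917.7) from 32296489 to 32297298, both on the forward strand. Hbb-bs (ENSMUSG00000052305.6) lies on chromosome 7 from 103826534 to 103828096 and Hbb-bt (ENSMUSG00000073940.3) from 103812524 to 103813996, both on the reverse strand. Alas2 (ENSMUSG00000025270.13) lies on chromosome X from 150547375 to 150570638 on the forward strand, and Slc4a1 (ENSMUSG00000006574.15) on chromosome 11 from 102348824 to 102366203 on the reverse strand. The coding sequences of Hba-a1 and Hba-a2 are 426 bases long without gaps and differ at 1 base, C381T (Hba-a1 first, counted from the first base of the start codon), an identity of 99.77%. Those of Hbb-bs and Hbb-bt are 441 bases long and also differ at 1 base, C417T, again an identity of 99.77%. The 60 coding bases around each difference are printed below, 5′ to 3′ on the coding strand from GENCODE M21, because they show how little of the coding sequence can assign a read to one copy. The base that differs is in capitals.
Hba-a1, coding bases 351 to 410: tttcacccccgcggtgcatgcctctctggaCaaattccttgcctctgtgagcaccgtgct
Hba-a2, coding bases 351 to 410: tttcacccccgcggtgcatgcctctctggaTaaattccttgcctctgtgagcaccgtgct
Hbb-bs, coding bases 382 to 441: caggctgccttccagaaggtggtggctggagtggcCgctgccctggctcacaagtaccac
Hbb-bt, coding bases 382 to 441: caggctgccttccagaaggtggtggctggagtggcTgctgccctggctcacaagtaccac
The untranslated ends of the copies were not compared. Counts of a single copy are therefore uncertain, and the sum of a pair or of all 4 globin genes is the safer measure.

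The regions before the transcription starts are shown as a description, and their part in the levels from library to library was not tested. The 250 bases before each RefSeq start (GRCm38.p6) were searched for 4 short motifs on both strands, and matches are in capitals. The motifs were the letters AGATAA, or TGATAA as its alternative, for GATA factors, CACCC for the box of that name, CCAAT for the CCAAT box, and ATATAA for the TATA box. Matches on the opposite strand are counted and capitalised as their reverse complements. Of 32851 mouse promoters of the same length, 16.6% held a GATA match, 52.0% a CACCC match, 33.8% a CCAAT match and 9.1% a TATA match.
Hba-a1, chr11:32283422-32283671, forward strand: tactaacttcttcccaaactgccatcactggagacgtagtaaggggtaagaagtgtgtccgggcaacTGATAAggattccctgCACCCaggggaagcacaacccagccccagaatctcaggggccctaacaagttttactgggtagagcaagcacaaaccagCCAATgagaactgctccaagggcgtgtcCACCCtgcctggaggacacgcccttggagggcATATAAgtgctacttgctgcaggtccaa
Hbb-bs, chr7:103827929-103828178, reverse strand: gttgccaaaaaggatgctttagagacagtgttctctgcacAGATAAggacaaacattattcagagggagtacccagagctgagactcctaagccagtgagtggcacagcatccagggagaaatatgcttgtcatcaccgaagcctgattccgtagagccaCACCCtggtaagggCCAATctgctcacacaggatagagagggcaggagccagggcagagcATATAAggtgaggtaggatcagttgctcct
Hbb-bt, chr7:103813924-103814173, reverse strand: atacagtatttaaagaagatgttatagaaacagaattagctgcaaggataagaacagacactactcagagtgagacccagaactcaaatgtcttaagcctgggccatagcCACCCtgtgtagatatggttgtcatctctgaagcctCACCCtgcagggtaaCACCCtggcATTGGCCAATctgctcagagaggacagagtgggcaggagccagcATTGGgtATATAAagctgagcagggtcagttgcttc
Alas2, chrX:150547167-150547416, forward strand: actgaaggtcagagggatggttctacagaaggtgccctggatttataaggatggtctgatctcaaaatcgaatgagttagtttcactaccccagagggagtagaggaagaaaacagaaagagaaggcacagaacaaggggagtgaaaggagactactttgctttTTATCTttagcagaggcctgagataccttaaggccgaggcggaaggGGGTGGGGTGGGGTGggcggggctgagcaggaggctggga
The window of Hba-a2, chr11:32296242-32296491, matched that of Hba-a1 at 247 aligned bases with 0 mismatches and held the same motifs. Hba-a1, Hba-a2 and Hbb-bs each held 1 match to the GATA motif, 1 to the CCAAT motif, 1 to the TATA motif and at least 1 to the CACCC motif. The Hbb-bt window held 3 CACCC, 3 CCAAT and 1 TATA match, and these GATA letters were not found in it. That of Alas2 held 1 GATA match and 3 adjacent CACCC matches on the opposite strand. No match of one motif overlapped a match of another in these windows. A match is a description of the letters and not a bound site.

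Sequencing depth was alike across libraries, from 26063590 to 39365841 counts. Levels are given as CPM, the count scaled to a library total of 1000000 gene and transposable element counts. The targeted genes were still counted in every mutant library of whole-testis RNA. Dnmt3c lay between 3.10 and 4.54 CPM in Dnmt3C KO and 3.43 and 4.91 in dKO, which overlap the 4.30 and 4.85 of WT. Nrf1 lay between 51.3 and 57.4 CPM in Nrf1 cKO, below the 57.8 and 58.9 of WT, and between 58.3 and 60.5 in dKO, which was not below WT. Summed over fixed marker lists, Sertoli cell genes lay between 858 and 1862 CPM and germ cell genes between 157 and 671, so both testis compartments were present in every library. One library, WT replicate 2, stands apart in several erythroid genes, and results that rest on it are given with and without it.

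The globin genes varied 8.32-fold between libraries when summed. The 4 genes together had 665 CPM in WT replicate 1 and 2072 in WT replicate 2. Replicates 1 to 3 had 792, 542 and 539 CPM for Dnmt3C KO, 316, 1703 and 299 for Nrf1 cKO, and 424, 249 and 741 for dKO. The libraries WT replicate 2 and Nrf1 cKO replicate 2 were high, at 0.207% and 0.170% of all counts, and every other library was at or below 0.0792%. The high libraries belonged to different genotypes, and the order of the others mixed all 4. Nrf1 cKO held both the second highest library and 2 of the 3 lowest.

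Each adult globin gene showed the same order of the top libraries. Hba-a1 stood at 236 and 759 CPM in the WT libraries, at 272, 176 and 187 in those of Dnmt3C KO, at 111, 602 and 113 in those of Nrf1 cKO, and at 135, 90.8 and 301 in those of dKO. Hba-a2 stood at 121 and 404 in the WT libraries, at 138, 94.7 and 104 in those of Dnmt3C KO, at 60.6, 302 and 56.1 in those of Nrf1 cKO, and at 76.1, 48.5 and 104 in those of dKO. For both alpha-globin genes the second replicates of WT and Nrf1 cKO were the 2 highest libraries and dKO replicate 2 the lowest. Hbb-bs stood at 245 and 654 CPM in the WT libraries, at 311, 209 and 199 in those of Dnmt3C KO, at 114, 643 and 103 in those of Nrf1 cKO, and at 166, 84.5 and 284 in those of dKO. Hbb-bt stood at 63.1 and 255 in the WT libraries, at 70.7, 61.6 and 48.3 in those of Dnmt3C KO, at 30.4, 156 and 26.7 in those of Nrf1 cKO, and at 47.1, 25.2 and 51.6 in those of dKO. The beta-globin genes had the same highest and lowest libraries as the alpha-globin genes. The dKO libraries lay below both WT libraries for Hba-a2 and Hbb-bt, as for 7.96% of the 21488 features tested, and in the 4 other genes, as in every other pair of genotypes for all 6, the groups overlapped.

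Alas2 followed the globins at a lower level. It stood at 16.0 and 45.6 CPM in the WT libraries, at 18.6, 11.7 and 9.88 in those of Dnmt3C KO, at 10.6, 37.8 and 7.75 in those of Nrf1 cKO, and at 10.0, 10.5 and 20.8 in those of dKO. The high libraries were again WT replicate 2 and Nrf1 cKO replicate 2. Relative to the globins, Alas2 had between 18.3 and 42.2 CPM per 1000 globin CPM, with the highest ratio in dKO replicate 2, the library with the least globin RNA.

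Slc4a1 did not share the pair of high libraries. It stood at 1.03 and 31.0 CPM in the WT libraries, at 1.09, 0.940 and 0.447 in those of Dnmt3C KO, at 0.948, 1.28 and 0.691 in those of Nrf1 cKO, and at 0.779, 0.307 and 1.21 in those of dKO. WT replicate 2 alone was high, with 1035 counts against 10 to 48 in the other 10 libraries. Nrf1 cKO replicate 2 was the second highest, but 24.2-fold below, and only 1.06-fold above the third, dKO replicate 3. In Nrf1 cKO replicate 2 the exact 95% Poisson interval was 0.945 to 1.70 CPM, which covers counting error only and holds the value of dKO replicate 3. Per 1000 globin CPM, Slc4a1 had 14.97 CPM in WT replicate 2 and 0.753 in Nrf1 cKO replicate 2, the lowest of the 11 libraries, while the other 9 lay between 0.831 and 2.997.

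**Figure D1:**
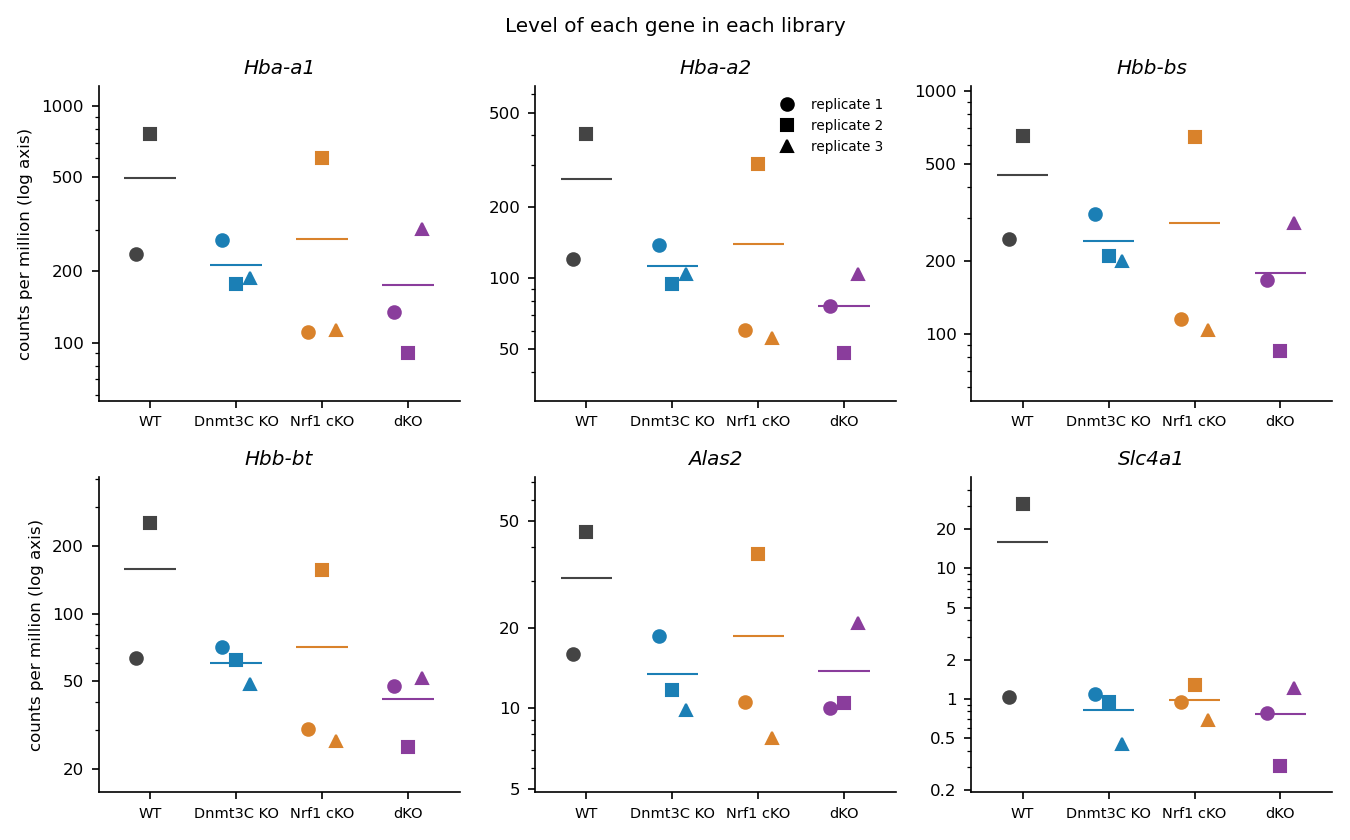
Each panel plots one gene, with genotypes on the horizontal axis, CPM on a log axis, one point per library (the shape gives the replicate number) and a line at the group mean. The second replicates of WT and Nrf1 cKO are highest for the 4 globin genes and Alas2, while for Slc4a1 only WT replicate 2, at 31.0 CPM, stands off from the rest.

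Compared between genes per kilobase of exon, the mean over 11 libraries was 357 CPM per kilobase for Hbb-bs, 334 for Hba-a1, 206 for Hba-a2, 108 for Hbb-bt, 7.54 for Alas2 and 0.739 for Slc4a1. The alpha-globin and beta-globin genes were at similar summed levels, with an alpha to beta ratio between 0.988 in dKO replicate 1 and 1.30 in Nrf1 cKO replicate 3. The ranges of neighbours in this order overlapped over libraries, except for Hbb-bt and Alas2. Within single libraries the order from Hba-a1 down to Slc4a1 held throughout, while Hbb-bs and Hba-a1 changed places.

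The spread between replicates of one genotype was among the widest of all features. The within-genotype standard deviation (SD) of log2(CPM + 1), pooled over the 4 genotypes with 7 degrees of freedom, was 1.01 for Hba-a1, 0.92 for Hba-a2, 1.01 for Hbb-bs, 0.97 for Hbb-bt, 0.82 for Alas2 and 1.099 for Slc4a1. The median over the 22594 features tested was 0.20. Between 31 features (for Slc4a1) and 122 (for Alas2) had a wider spread, so that 99.5% to 99.9% of features lay below each gene. Among features within 2-fold of its own mean level, 1 of 1215 spread more widely than Hba-a1 and 0 of 1203 more widely than Hbb-bs. The share of each gene's variance over the 11 libraries that lay within genotypes ran from 52.8% for Slc4a1 to 76.1% for Hbb-bs, beside a median of 72.0% over all features. The spread of Slc4a1 was 0.30 without either WT library, since a lone WT library has no spread, and that of Hba-a2 was 0.61 without Nrf1 cKO replicate 2.

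Group means followed the libraries that stood out. Hba-a1 averaged 498 ± 369 CPM (SD, n = 2) for WT, then 212 ± 52.4, 275 ± 283 and 176 ± 111 (SD, n = 3 each) for Dnmt3C KO, Nrf1 cKO and dKO. The 4 globins summed averaged 1369 ± 995 CPM (SD, n = 2) and 624 ± 145, 773 ± 806 and 471 ± 250 (SD, n = 3 each) in the same order. Alas2 averaged 30.8 ± 20.95 CPM (SD, n = 2) and 13.4 ± 4.62, 18.7 ± 16.6 and 13.8 ± 6.12 (SD, n = 3 each). Slc4a1 averaged 16.0 ± 21.2 CPM (SD, n = 2) and 0.826 ± 0.336, 0.974 ± 0.296 and 0.766 ± 0.452 (SD, n = 3 each). WT had the highest mean for all 6 genes. For 5 of them this rested on WT replicate 2: WT replicate 1 alone lay below the Nrf1 cKO mean for the globins summed (665 against 773 CPM), each single globin and Alas2 (16.0 against 18.7 CPM). That Nrf1 cKO mean in turn holds Nrf1 cKO replicate 2. The other Nrf1 cKO libraries, at 316 and 299 CPM for the globins summed, lay below WT replicate 1. For Slc4a1, WT replicate 1 alone, at 1.03 CPM, was above the 3 mutant means but below single mutant libraries. The size of the WT mean of Slc4a1 still rested on WT replicate 2, at 31.0 CPM. The 2 WT libraries differed by 2.68-fold to 4.04-fold for the globins, 2.85-fold for Alas2 and 30.1-fold for Slc4a1.

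Dnmt3C loss was compared with WT first. The 4 globin genes, Alas2 and Slc4a1 were lower in Dnmt3C KO, and none passed an adjusted p under 0.01 in edgeR's quasi-likelihood test with Benjamini-Hochberg adjustment over all features. Log2 fold changes were -1.24 (adjusted p = 0.788, edgeR, with a standard error of 0.38) for Hba-a1, -1.24 for Hba-a2, -0.92 for Hbb-bs, -1.41 for Hbb-bt, -1.21 for Alas2 and -4.28 (standard error 0.95, adjusted p = 0.511, edgeR) for Slc4a1, beside a median of 0.01 over all features. All 6 had an unadjusted p under 0.05, as did 1173 of 21664 features (5.41%), and at the adjusted threshold the test called 0 features (0%), as in every other comparison below. The calls depended on the filter and on WT replicate 1: all 6 genes were called in Dnmt3C KO with no filter on low counts (158 of 33284 features called) and 4 were called without WT replicate 1 (17 of 22851). An unadjusted p under 0.05 was found for 3 of the 6 by DESeq2 (beside 5.32% of features) and for 1 with all 4 genotypes in one edgeR fit (3.76%). DESeq2's Wald test called 0 of the 6 genes at the adjusted threshold in each of the 6 comparisons between pairs of genotypes. Of all features it called from 4 of 21488 (dKO over WT) to 212 of 20642 (Dnmt3C KO over Nrf1 cKO). Without WT replicate 2 none of the 6 had an unadjusted p under 0.05, beside 11.2% of features, and the values were -0.12, -0.06, 0.01, -0.02, -0.21 and -0.27.

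The difference between Nrf1 cKO and WT was smaller for the globins. Log2 fold changes were -0.82 (adjusted p = 0.970, edgeR, with a standard error of 0.70) for Hba-a1, -0.87 for Hba-a2, -0.61 for Hbb-bs, -1.12 for Hbb-bt and -0.68 for Alas2, with both groups holding one high library. For Slc4a1 it was -3.98 (standard error 0.96, adjusted p = 0.734, edgeR). Only Slc4a1 had an unadjusted p under 0.05, beside 5.75% of 21296 features. At the adjusted threshold 2 of the 6 were called with no filter on low counts (138 of 32905 features) and 1 without WT replicate 1 (4 of 22401). Without WT replicate 2 the globin and Alas2 values lay above 0, between 0.24 and 0.30, and that of Slc4a1 was -0.01. Without Nrf1 cKO replicate 2 instead, Hba-a1 was at -2.12 and all 6 had an unadjusted p under 0.05, beside 3.61% of features, with adjusted p of 1.0 (edgeR). With 1 library left out at a time, the globin and Alas2 values thus lay above 0 only without WT replicate 2. Among the libraries that were not high, the globins summed to 316 and 299 CPM in Nrf1 cKO, below the 665 of WT replicate 1.

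The dKO libraries had the lowest means for all 6 genes but Alas2. Against WT, log2 fold changes were -1.48 (adjusted p = 1.0, edgeR, with a standard error of 0.55) for Hba-a1, -1.77 for Hba-a2, -1.31 for Hbb-bs, -1.93 for Hbb-bt, -1.13 for Alas2 and -4.37 for Slc4a1. All 6 had an unadjusted p under 0.05, beside 1.74% of 21488 features, and 0 were called, against 3 with no filter on low counts (13 of 33230 features). The count at an unadjusted p under 0.05 was 3 by DESeq2 (beside 1.69% of features), 3 with all 4 genotypes in one edgeR fit (1.80%) and 3 without dKO replicate 1 (2.62%). Without WT replicate 2 none had an unadjusted p under 0.05, beside 1.29% of features, and the values lay between -0.60 and -0.15.

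**Figure D2:**
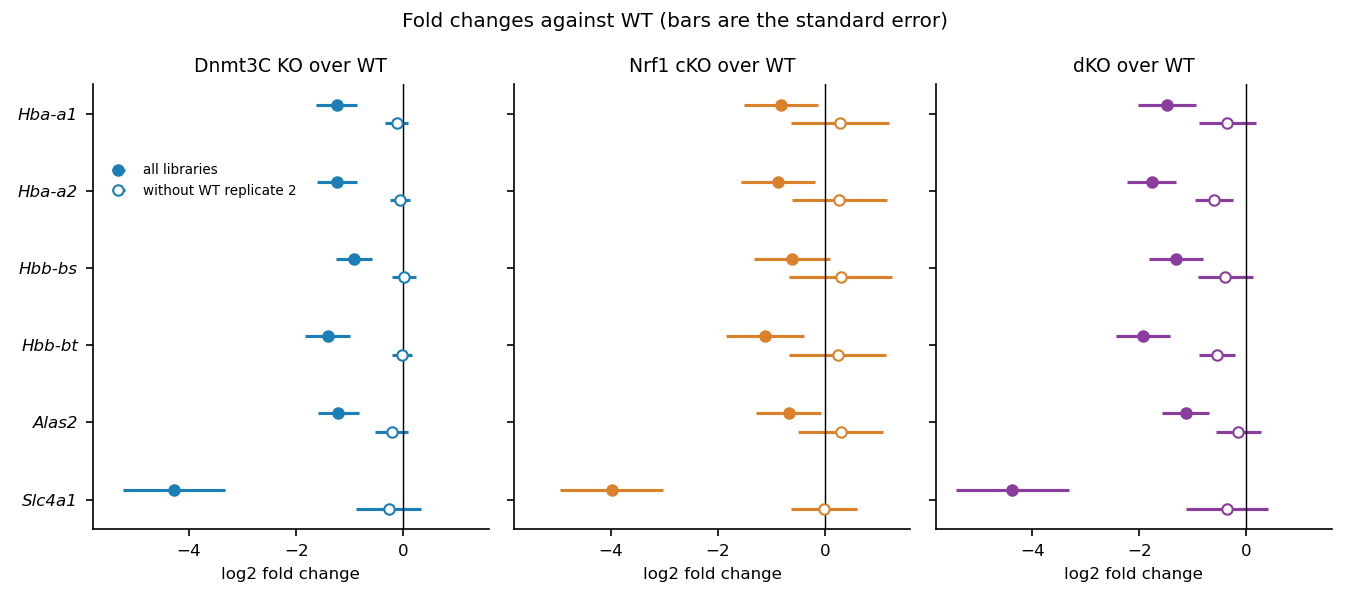
Each panel shows one comparison with WT, with the log2 fold change on the horizontal axis and its standard error as bars, from all libraries (filled) and without WT replicate 2 (open). Slc4a1 moves from -4.28, -3.98 and -4.37 to values between -0.36 and -0.01, and the globin values lie between -0.12 and 0.01 for Dnmt3C KO, 0.24 and 0.30 for Nrf1 cKO and -0.60 and -0.36 for dKO.

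Among the mutants no member had an unadjusted p under 0.05 with all libraries, the filter on low counts and genotype alone in the edgeR model. Between dKO and Nrf1 cKO the log2 fold changes lay between -0.88 (Hba-a2) and -0.36 (Slc4a1), beside 2.81% of 20381 features with an unadjusted p under 0.05. Without Nrf1 cKO replicate 2 the globins and Alas2 were instead higher in dKO, by 0.38 (Hba-a2) to 0.71 (Hbb-bs) on the log2 scale, with 0 members and 1.84% of features at an unadjusted p under 0.05. Without Nrf1 cKO replicate 3, 1 member did, beside 6.18% of features, as did 1 with no filter (3.04%). Between dKO and Dnmt3C KO they lay between -0.53 (Hba-a2) and 0.07 (Alas2), beside 7.17% of 20783 features. Members at an unadjusted p under 0.05 in that comparison numbered 4 without dKO replicate 3 (5.74% of features), 1 without Dnmt3C KO replicate 3 (4.04%), 2 by DESeq2 (7.25%) and 2 with no filter (6.28%), with 0 called. Between Dnmt3C KO and Nrf1 cKO they lay between -0.52 (Alas2) and -0.27 (Hbb-bt), beside 10.6% of 20642 features. Without Nrf1 cKO replicate 2 the globins and Alas2 were instead higher in Dnmt3C KO than in Nrf1 cKO, by 0.50 (Alas2) to 1.095 (Hbb-bs) on the log2 scale. The 4 globins then had an unadjusted p under 0.05, beside 11.3% of features, with adjusted p between 0.252 and 0.289 (edgeR). In a test of any difference among the 4 genotypes, 1 member, Slc4a1, had an unadjusted p under 0.05, beside 6.06% of 22594 features, while 0 members did without WT replicate 2 (5.76% of features) and 6 did without Nrf1 cKO replicate 2 (4.77% of features). In that test 0 members were called, against 1 with no filter, 1 by DESeq2's likelihood ratio test and 1 without WT replicate 1. These comparisons share libraries with one another and are not independent.

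The globins and Alas2 tracked each other over libraries, and Slc4a1 tracked them less closely by Pearson's r. Over the 11 libraries, Pearson's r of log2(CPM + 1) was between 0.958 and 0.988 for the 6 pairs of globins and between 0.919 and 0.957 for Alas2 with each globin. Spearman's rho was 0.918 to 0.982 and 0.818 to 0.882. For the 5 pairs with Slc4a1, r was 0.645 to 0.775 and rho 0.845 to 0.927. All 15 pairs passed an adjusted p under 0.05 in a two-sided permutation test with 100000 resamples (adjusted over the 15 pairs), from 3e-05, the adjusted value of the smallest p such a test can give (1e-05), to 9.9e-04. Without the 2 libraries farthest from the median level, WT replicate 2 and Nrf1 cKO replicate 2, r was 0.868 to 0.974 for the globins, 0.681 to 0.852 for Alas2 with a globin and 0.590 to 0.686 with Slc4a1. Centred within genotype, r was 0.946 to 0.988, 0.930 to 0.963 and 0.541 to 0.677. The centred pairs of Slc4a1 with Hba-a1, Hba-a2 and Hbb-bs had adjusted permutation p of 0.0558, 0.0543 and 0.0875. The points share library, depth and the reads that match both copies of a globin pair, whose part was not tested.

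**Figure D3:**
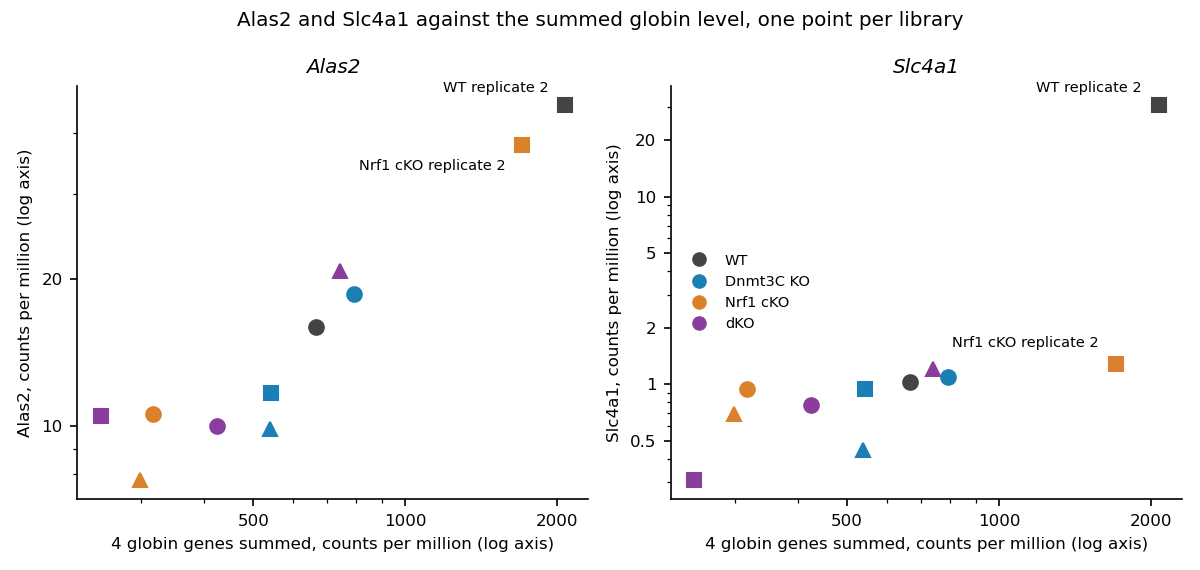
Each point is one library, with the CPM of the 4 globin genes summed on the horizontal log axis and the CPM of Alas2 or Slc4a1 on the vertical log axis (colours give the genotype). Alas2 climbs with the globins through both high libraries, while Slc4a1 stays near 1 CPM in Nrf1 cKO replicate 2, at 1.28, and reaches 31.0 in WT replicate 2.

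The hemoglobin level, the log2 CPM of the 4 globins summed, was then used as a measure of each library beside its genotype. The slope is the log2 change of a feature for each doubling of the globin level. Of all 22590 features tested, Alas2 had the smallest p, with a slope of 0.84 (standard error 0.09, adjusted p = 0.0137, edgeR), which missed the threshold of 0.01. Its slope stayed between 0.79 and 0.90 whichever library was dropped. Its adjusted p (edgeR) then ran from 0.00712 without dKO replicate 2 and 0.00850 without dKO replicate 1, both under the threshold, to 0.370 without Nrf1 cKO replicate 2. Without both high libraries the slope was 0.77 (adjusted p = 0.692, edgeR), while the adjusted p was 7.92e-05 with no filter on low counts (edgeR) and 1.14e-14 by DESeq2's likelihood ratio test. Slc4a1 had a slope of 1.03 (standard error 0.39, adjusted p = 0.455, edgeR), and this depended on single libraries: it was 0.49 without WT replicate 2, 0.48 without WT replicate 1 and 2.26 without Nrf1 cKO replicate 2. An unadjusted p under 0.05 was found for 10.0% of the features, 958 above 0 and 1308 below, and 0 features were called. That share fell to 6.03% (1354 of 22451) without dKO replicate 2 and rose to 13.5% (3027 of 22466) without Nrf1 cKO replicate 1. With the hemoglobin level held as a covariate, neither Alas2 (unadjusted p = 0.168, edgeR) nor Slc4a1 (unadjusted p = 0.114, edgeR) had an unadjusted p under 0.05 for a difference among genotypes, beside 6.83% of features, and 0 features were called by edgeR. The 4 globins make up the level, so that fit cannot show a genotype difference in their common level. They were also left out of the test of the slope.

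Outside the 6 genes, the features with the smallest p for a slope above 0 did not come only from red cells. Of the 15, Isg20 had a slope of 0.94 (standard error 0.17, adjusted p = 0.349, edgeR). Mfap5, a microfibril protein of connective tissue, had a slope of 0.62 (standard error 0.08, adjusted p = 0.0930, edgeR). Another 12 were S100b, Selenop, Serping1, Cldn1, Ren1, 2410006H16Rik, Cd302, Cd34, Ifitm1, Dcn, C1qtnf2 and Cyp27a1, with slopes between 0.24 and 0.41. Dcn (decorin) and Serping1 (the C1 inhibitor) are made by connective tissue cells, and Cd34 marks vessels and stroma. The 5 with the smallest p below 0 were Clec2h, Prdm16, Map1b, Cemip2 and Plagl2, with slopes between -2.35 and -0.28. None of the features named here passed the threshold.

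The genes whose pattern over the 11 libraries was most like the hemoglobin level included several of the same names. Among 16000 genes with a mean of at least 1 CPM, Pearson's r with the level was 0.948 for Isg20, and among the 10 highest were also Gm20696, C030017B01Rik, B130024G19Rik, Serping1, Mfap5, Cldn1, Ntn1 and Dcn, between 0.873 and 0.844. Isg20 was at 3.596 CPM in WT replicate 2, 2.11 in Nrf1 cKO replicate 2 and between 0.385 and 1.33 in the other 9 libraries. These r values are descriptions, chosen as the highest of many, and carry no test. On the same scale Alas2 had r = 0.945, which 1 gene exceeded, and Slc4a1 had r = 0.705, which 192 genes exceeded.

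Some markers of the testis compartments had an unadjusted p under 0.05 for the slope, and none was called. Of all features 4.24% had an unadjusted p under 0.05 with a slope above 0 and 5.79% with a slope below 0. Of Leydig cell genes 3 of 6 had a slope above 0 at an unadjusted p under 0.05, of endothelial genes 2 of 10, and of peritubular, macrophage and T cell genes 1 each of 5, 7 and 5. Of Sertoli cell genes 3 of 7 and of germ cell genes 3 of 12 had a slope below 0. dKO replicate 2, the library with the least globin RNA, had the lowest summed level of macrophage (76.9 CPM), endothelial (260 CPM), Leydig (755 CPM), peritubular (1229 CPM) and B cell genes (2.58 CPM). Its Sertoli cell sum, 1830 CPM, was the second highest. The 2 libraries with the most globin RNA were not extreme in the same way: endothelial genes summed to 307 CPM in WT replicate 2 and 466 in Nrf1 cKO replicate 2, within a range of 260 to 478. Neutrophil genes summed to between 0.560 and 24.9 CPM and were highest in Nrf1 cKO replicate 1, with 316 CPM of globin. Platelet genes lay between 8.27 CPM, in WT replicate 2, and 19.4. The part of the somatic make-up of the libraries in the globin spread was not tested.

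Some lists of other red cell genes differed between the 2 libraries with the most globin RNA. Each gene was compared with the median of the other 9 libraries on the log2(CPM + 1) scale. In WT replicate 2, 6 of 6 members, 2 of 4 other globin genes, 6 of 14 red cell membrane and skeleton genes and 5 of 13 other erythroid genes were at least 2-fold above that median, against 0.496% of the 22594 features that passed the filter. None of the 11 heme synthesis genes or the 7 erythroid transcription factors was. In Nrf1 cKO replicate 2, 5 of the 6 members and 1 of the 11 heme synthesis genes (Alas1) were, against 0.177% of features, and no gene of the other 4 lists. This choice of libraries was made after their levels were seen and carries no test. Epb42, Kel, Hemgn, Car1 and Cldn13, counted for WT replicate 2, did not pass the filter, so those list counts and the share come from unlike sets.

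The embryonic globins were highest in WT replicate 2. Hbb-y had 19.1 CPM (636 counts) there, 3.58 CPM (141 counts) in Dnmt3C KO replicate 2 and 1 to 15 counts in the other 9 libraries. Hba-x had 102 counts (3.06 CPM) in WT replicate 2, 18 counts in Dnmt3C KO replicate 2, 0 to 2 counts in the other 9, and a count of 0 in 7 libraries, which allows up to 0.0801 to 0.115 CPM depending on depth. Nrf1 cKO replicate 2 had 3 counts of Hbb-y and 0 of Hba-x at 1703 CPM of adult globin. The theta globins Hbq1a and Hbq1b reached at most 0.0884 and 0.645 CPM. Of the 9 symbols in this list, 4 had rows in the count tables.

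Several genes of the red cell membrane shared the pattern of Slc4a1. Epb42 (protein 4.2, which binds band 3) was at 2.49 CPM in WT replicate 2 against at most 0.177 in the other libraries, Kel (the Kell antigen) at 2.46 against at most 0.206, and Rhag at 0.959 against 0 in every other library. Ermap (4.41 against at most 1.80 CPM), Rhd (4.44 against at most 2.09) and Ank1 (6.77 against at most 6.33), the ankyrin of the red cell, were also highest there. The genes of this list with the highest mean levels, Epb41 at 60.6 CPM and Sptb at 60.2, were not: Sptb was at 43.6 CPM in WT replicate 2, its lowest library, and Epb41 at 58.5 within a range of 50.9 to 73.1. Of the 14 genes 9 were highest in WT replicate 2, where 12.1% of all features tested were highest. Epb42, Kel and Rhag are among these 9 and were not tested, so the count and the share come from unlike sets. None of the 11 tested was called for the slope on the globin level, 2 had an unadjusted p under 0.05 above 0, and 2 below 0 (Sptb and Epb41).

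Several other genes of maturing red cells were also highest in WT replicate 2. Hemgn (hemogen, a nuclear protein of erythroblasts) was at 4.59 CPM in WT replicate 2 and at most 0.127 elsewhere. Car1, the red cell carbonic anhydrase, was at 2.07 CPM against at most 0.0801, and Cldn13 at 1.17 against at most 0.0762. Trim10 was at 2.55 CPM against at most 1.03. The 3 with the highest mean level in this list, Prdx2 (399.9 CPM), Blvrb (45.9) and Tmcc2 (30.3), are also made by other cells. Prdx2 lay between 327 and 468 CPM and Tmcc2 between 27.8 and 33.6, while Blvrb was highest in the 2 libraries rich in globin RNA, at 59.7 and 59.0 CPM against a lowest value of 31.4. Of the 8 genes tested, 0 were called for the slope and 4 had an unadjusted p under 0.05, all above 0, among them Ube2l6, Blvrb and Trim10.

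Of the 11 heme synthesis genes apart from Alas2, 0 were called for the slope and 0 had an unadjusted p under 0.05, beside 10.0% of all features, a count too small to tell the list from the background. The 3 with the highest mean level were Alad at 117 CPM, Alas1 at 77.1 and Fech at 73.5. Alad was lowest in WT replicate 2, at 61.5 CPM, and highest in Nrf1 cKO replicate 3, at 214. Alas1, the housekeeping form of the enzyme, was at 56.6 CPM in WT replicate 2, 136 in Nrf1 cKO replicate 2 and 140 in Nrf1 cKO replicate 1. Fech, which inserts the iron, stayed between 66.0 and 78.3 CPM. Of the 6 erythroid transcription factors tested, 0 were called and 0 had an unadjusted p under 0.05, which cannot be told from the same background. Zfpm1 (mean 63.3 CPM), Gata1 (5.86) and Lmo2 (4.48) had the highest mean levels, and Gata1, which Sertoli cells also make, was at 3.66 CPM in WT replicate 2 and highest, at 14.3, in Nrf1 cKO replicate 3. Klf1, the erythroid factor that acts on the beta-globin promoter, was at 1.56 and 1.47 CPM in the high libraries, the 2 highest of its 11 values, with 0.433 the lowest. In the comparisons between genotypes 0 genes of the 5 erythroid lists were called.

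**Figure D4:**
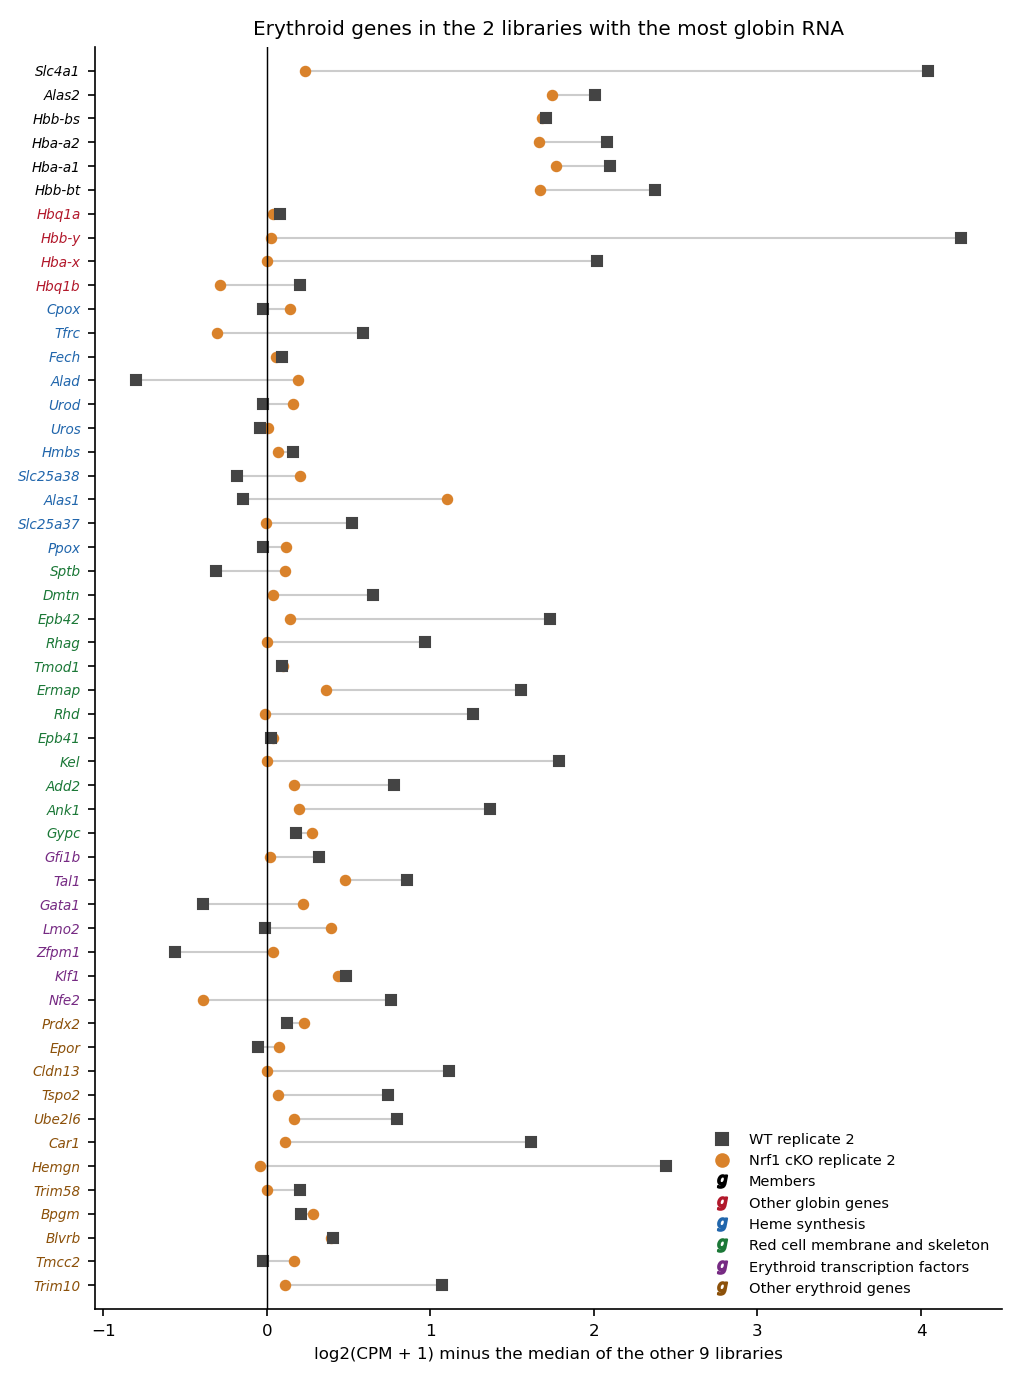
Each row is one gene (not every listed gene is drawn), coloured by its list, and the horizontal axis gives its log2(CPM + 1) minus the median of the other 9 libraries, for WT replicate 2 (square) and Nrf1 cKO replicate 2 (circle). Both libraries are high for the adult globins and Alas2, while Slc4a1, Hbb-y, Hba-x, Hemgn and several membrane genes are high in WT replicate 2 alone.

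The split of counts within each globin pair was steady in most libraries. Hba-a1 took between 63.9% and 66.8% of the counts of Hba-a1 and Hba-a2 in 10 libraries, and 74.3% in dKO replicate 3 (exact Clopper-Pearson 95% interval 73.6% to 75.0%, 13726 counts). The highest share among the others was 66.8% (65.4% to 68.2%, 4399 counts) in Nrf1 cKO replicate 3, so the intervals did not meet. The same library also had the highest share of Hbb-bs among Hbb-bs and Hbb-bt, 84.6% (84.0% to 85.3%, 11374 counts). The lowest Hbb-bs share was 72.0% (71.5% to 72.5%, 30336 counts), in WT replicate 2. The other 9 libraries, Nrf1 cKO replicate 2 among them at 80.5%, lay between 77.0% and 81.5%. The 2 libraries with the most globin RNA thus had like shares of Hba-a1, 65.2% and 66.6%, and unlike shares of Hbb-bs. These intervals cover counting error only, and PCR reads without molecular identifiers are not independent molecules. The handling of reads that match both copies can set the split, and its part was not tested.

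**Figure D5:**
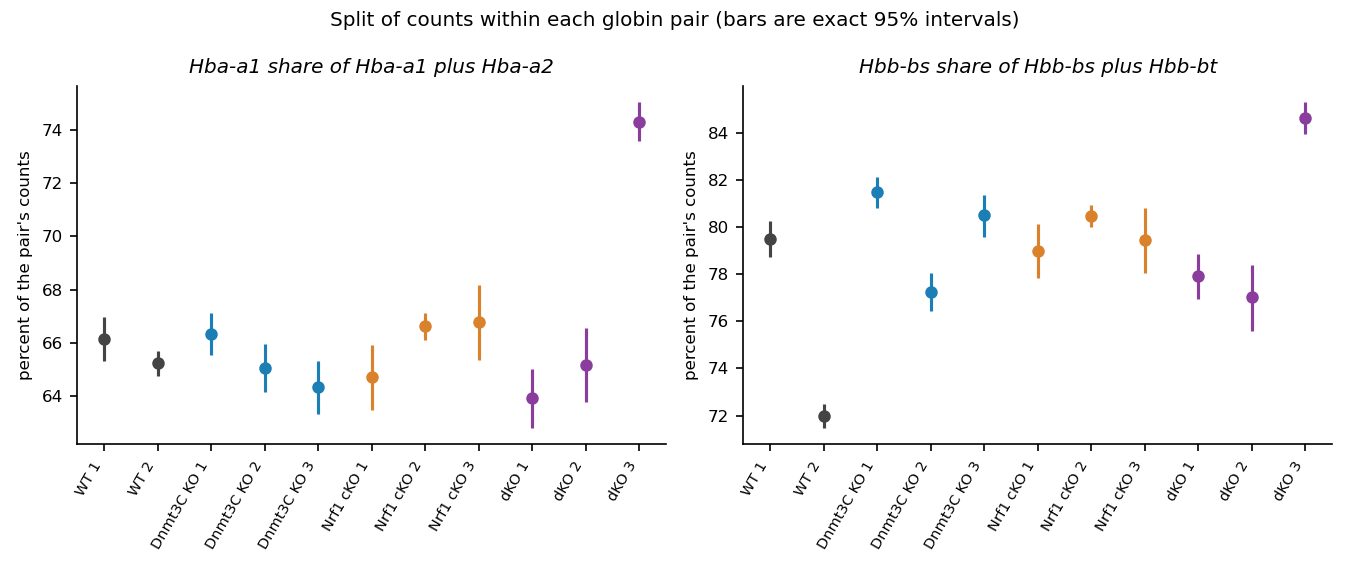
The points give, for each library, the percent of a pair's counts assigned to Hba-a1 (left) or to Hbb-bs (right), with exact 95% intervals and colours by genotype; the axes do not start at 0. dKO replicate 3 is highest in both panels (74.3% and 84.6%), and WT replicate 2 is lowest for Hbb-bs at 72.0%.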

How the data were processed

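Per the labels, whole testes were homogenized in Trizol and stranded poly(A) libraries were sequenced as read pairs. The authors aligned reads with STAR 2.7.3a to GRCm38 and counted genes and transposable element subfamilies with TEtranscripts in multi-mapper mode, so reads shared by near-identical genes were handled by that tool. They deposited raw counts, not normalized, in 6 pairwise tables, which also hold their DESeq2 1.44.0 results (not used). The 6 tables were joined on the feature ID; 0 counts differed between tables, and each feature in a table reached at least 2 counts in 1 library. A table of transposable element copies was not used here.

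CPM was taken over each library's total count. Tests used edgeR 4.0.16 in R 4.3.3 (filterByExpr, TMM factors from 0.966 to 1.04, quasi-likelihood F test, Benjamini-Hochberg over all features, adjusted p under 0.01) on the libraries compared, or on all 11 for the slope. The fits between 2 genotypes, among all 4 and for the slope were tested on simulated data. Correlations and intervals used scipy 1.17.1. Promoters came from RefSeq (GRCm38.p6; 5 of the 6 genes matched) and gene positions from GENCODE M21, in which 32354 of 33188 gene IDs had the same version. The rule for named genes took all 6 members, the 3 genes of each list with the highest mean and any called, the 15 and 5 features with the smallest slope p above and below 0, and the 10 genes most like the hemoglobin level; list genes named beyond these were chosen after their values were seen. The members and lists were chosen with earlier results of these data known. Nothing in the labels ties libraries to litters, so p-values measure the spread between these samples. Alternatives were other scalings, no filter, DESeq2 1.42.0, a replicate block, one fit over all genotypes, a globin-free level, pseudocounts and leaving out each library. Values of some listed genes are not reported here.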

Additional observations from a re-analysis of the deposited data

How the results depend on the processing

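Between genotypes, the number of the 6 genes called at an adjusted p under 0.01 changed in the comparisons with WT. For Dnmt3C KO over WT it was 6 with no filter on low counts (158 of 33284 features called), 3 with a replicate block (131 of 21664) and 0 to 4 with each library left out (4 without WT replicate 1, where 17 of 22851 were called). For Nrf1 cKO over WT it was 2 with no filter (138 of 32905), 1 with the block (87 of 21296) and 0 to 1 (1 without WT replicate 1, with 4 of 22401). For dKO over WT it was 3 (13 of 33230), 4 (21 of 21488) and 0 to 0. For any difference among the 4 genotypes it was 1 with no filter (29 of 34276), 1 by DESeq2's likelihood ratio test (127 of 22594) and 0 to 1 with each library left out (1 without WT replicate 1, with 6 of 23841). Features called for the slope numbered 1 at an adjusted p under 0.05, 3 with no filter, 20 by DESeq2, 3 with the level taken from Alas2 and Slc4a1, and 0 to 1 with each library left out. For a genotype difference beside the hemoglobin level they numbered 32 with no filter and 162 by DESeq2. The cause was not tested.

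Directions of log2 fold changes turned mostly with 1 library. With each library left out, Dnmt3C KO over WT ran from -1.46 to 0.014 for Hbb-bs. Nrf1 cKO over WT ran from -2.12 to 0.29 for Hba-a1, -2.13 to 0.27 for Hba-a2, -2.01 to 0.30 for Hbb-bs, -2.44 to 0.24 for Hbb-bt and -1.71 to 0.30 for Alas2. For dKO over Nrf1 cKO it was -1.33 to 0.65 for Hba-a1, -1.26 to 0.38 for Hba-a2, -1.24 to 0.71 for Hbb-bs, -1.19 to 0.52 for Hbb-bt, -0.91 to 0.58 for Alas2 and -0.89 to 0.027 for Slc4a1. For dKO over Dnmt3C KO it was -0.91 to 0.064 for Hba-a1, -0.38 to 0.37 for Alas2 and -0.61 to 0.28 for Slc4a1. For Dnmt3C KO over Nrf1 cKO it was -0.81 to 0.88 for Hba-a1, -0.75 to 0.90 for Hba-a2, -0.71 to 1.095 for Hbb-bs, -0.68 to 1.03 for Hbb-bt, -0.91 to 0.50 for Alas2 and -0.50 to 0.0018 for Slc4a1. With the replicate block the last comparison was 0.10 for Hba-a1, 0.15 for Hba-a2, 0.28 for Hbb-bs and 0.23 for Hbb-bt. For dKO over Dnmt3C KO 2 of the 6 genes had an unadjusted p under 0.05 with the block (beside 10.9% of features), against 0 without it (7.17%). Samples with the same replicate number did not deviate together (r from -0.24 to 0.22, over 0.1 in 3 of 15 pairs), so the numbers were taken as names of samples. The 2 WT libraries mirror each other once centred on their mean, so this check cannot exclude a pairing. The replicate numbers are those of the sample titles, and the sample descriptions label 3 of the libraries differently, so the block may not follow the original numbering. With a group of 1 library left, that library is assumed to vary like the others.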

Other observations

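WT replicate 2 also led in genes outside the red cell programme. It was at least 2-fold above every other library, on the log2(CPM + 1) scale, for 43 of 34276 features, against 0 to 15 in each other library. Besides Slc4a1 and 8 genes of the erythroid lists, these 43 held 11 genes of the major histocompatibility complex (H2) and several interferon-response genes. H2-Aa was at 87.1 CPM against at most 6.96 elsewhere, H2-Eb1 at 57.6 against at most 5.91 and Cd74, the invariant chain of class II molecules, at 37.1 against at most 8.502. B2m, the light chain of class I molecules, was at 537 CPM against at most 151, and the interferon-induced GTPase Iigp1 at 41.9 against at most 8.92. In Nrf1 cKO replicate 2, the other library rich in globin RNA, H2-Aa was at 5.13 CPM and B2m at 136, within the range of the rest. These genes were picked after their values were seen, and no test was made.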
